A study of Mus musculus with 3 samples.

Results

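Glypicans and syndecans are the membrane-bound heparan sulfate proteoglycans of animal cells, and their 10 mouse genes were followed across the RNA-seq libraries of this series. The genes were taken by name from the count table, Gpc1 to Gpc6 for the glypicans and Sdc1 to Sdc4 for the syndecans, which makes 10 of the 21782 genes it lists. The libraries were made from polyA+ RNA of asynchronous mouse embryo fibroblasts (MEFs), which are primary cells isolated from embryos at E12.5 and grown in DMEM with 20% FBS. All carried the wild type (WT) genotype with no treatment, and there was 1 library for each of 3 clones. Nothing in the labels says whether the clones came from separate embryos, so that p-values measure the spread between these libraries, which may be technical. There is a single condition, and the results are therefore levels, their spread between clones and the relations among the 10 genes.

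The core protein of a glypican is a compact, cysteine-rich ectodomain held on the outer face of the plasma membrane by a glycosylphosphatidylinositol (GPI) anchor, with heparan sulfate chains attached close to the membrane. A syndecan instead crosses the membrane, carries its chains towards the far end of an extended ectodomain and ends in a short cytoplasmic tail that binds PDZ domain proteins. Through their sulfated chains both families bind FGFs, Wnts, Hedgehogs, BMPs and matrix proteins, and in fibroblasts they act as co-receptors for growth factors and as partners of integrins in adhesion.

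All 4 syndecans and 5 of the 6 glypicans were expressed in MEFs, at 1 CPM (counts per 1000000 counts) or more in every clone. Of all genes in the table, 52.2% passed the same threshold. Gpc5 was at the limit of detection, with 0, 3 and 1 counts. Gpc4 was the highest of the 10 genes per kb of exon, and the 4 syndecans came next, at levels within a narrow band. Between clones, Gpc4 was also the member that varied most, with 1.85-fold between clone 1 and clone 2. Gpc6 was the member that varied least, with 1.03-fold between its highest and lowest clone. Together the 10 genes had 2493 ± 185 CPM (SD, n = 3 clones), which is 0.266%, 0.241% and 0.241% of all counts in clones 1, 2 and 3.

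Total counts were 25261357, 22594316 and 24791198 in clones 1, 2 and 3, so that a single count is 0.0402, 0.0443 and 0.0396 CPM. All 8 genes of a fibroblast list were expressed, with summed levels of 56806, 47191 and 45766 CPM in the 3 clones. Clone 2 stood apart in a macrophage list, in which 10 of 11 genes were expressed and all 10 were highest in clone 2 by more than 2-fold, with summed levels of 364, 1706 and 299 CPM. Clone 1 stood apart in proliferation. All 7 cell cycle genes were lowest in clone 1 and highest in clone 2 (summed levels of 382, 757 and 643 CPM), and all 3 arrest genes (Cdkn1a, Cdkn2a, Cdkn2b) were highest in clone 1 and lowest in clone 2 (587, 411 and 464 CPM). Lists of other cell types were mixed. In the epithelial list 2 of 8 genes were expressed, with summed levels of 23.5, 41.6 and 33.1 CPM, most of it from Krt19 (433, 842 and 575 counts), while Epcam had 5, 1 and 3 counts and Cdh1 had 3, 4 and 5. No B cell or plasma cell gene had more than 3 counts. In the neural list 3 of 8 genes were expressed (87.3, 90.8 and 81.9 CPM), with Tubb3 at 73.1 CPM and Rbfox3 at 0 in all clones, and 1 of 5 glial genes was expressed. In the endothelial list 1 of 6 genes was expressed (19.7, 10.9 and 22.7 CPM), with Kdr at 163, 214 and 314 counts, Emcn at 307, 4 and 242 counts and Tie1 at 0 in all clones. Cartilage and muscle genes were present in every clone. In the cartilage list 4 of 6 genes were expressed, with 799, 549 and 777 CPM and Col2a1 highest at 649 CPM, and in the muscle list 2 of 5, with 202, 199.9 and 221 CPM from Acta1 and Des in the main. In the mesothelial list 2 of 4 genes were expressed, with 9.30, 9.71 and 13.2 CPM. In bulk RNA, fewer cells of a type and less RNA per cell cannot be told apart.

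The syndecans are shown first by the end of the cytoplasmic tail, where the PDZ-binding motif that marks the family lies. The last 60 coding bases before the stop codon of each gene (GENCODE M21 transcripts with the longest coding sequence, 5′ to 3′) are given here, with capitals for the bases that are identical in all 4 genes.
Sdc1: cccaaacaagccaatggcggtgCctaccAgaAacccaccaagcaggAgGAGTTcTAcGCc
Sdc2: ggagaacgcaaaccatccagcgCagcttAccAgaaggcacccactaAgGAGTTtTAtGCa
Sdc3: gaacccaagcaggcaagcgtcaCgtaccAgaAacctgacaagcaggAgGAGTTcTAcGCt
Sdc4: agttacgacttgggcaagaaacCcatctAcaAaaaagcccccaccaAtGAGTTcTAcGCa
In these stretches 13 of 60 bases were identical in all 4 genes, and 4 of the 20 residues encoded were identical in all, namely the last 4 of each protein, which form that motif. Pairs of tails shared between 21 bases (Sdc1 and Sdc2) and 37 bases (Sdc1 and Sdc3). The whole proteins, of 311, 202, 442 and 198 residues for Sdc1 to Sdc4, were between 40.6% (Sdc1 and Sdc2) and 49.5% (Sdc3 and Sdc4) identical over aligned residues.

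The glypicans are longer and more alike in size, with 557, 579, 579, 557, 645 and 565 residues for Gpc1 to Gpc6, of which 15 to 20 are cysteines, against 0 to 2 cysteines in the syndecans. The closest pair was Gpc4 and Gpc6, with 358 of 554 aligned residues identical (64.6%), and these 2 genes had the largest and the smallest range between clones of the 9 genes expressed. Gpc1 and Gpc6 were 48.1% identical, Gpc3 and Gpc5 were 43.7% identical, and the most distant pair was Gpc2 and Gpc3 at 22.5%. Glypican genes that lie side by side in the genome were not the closest in sequence. In GRCm38, Gpc4 (X, 52053021 to 52165252) and Gpc3 (X, 52272426 to 52613950) are both on the minus strand with 107.173 kb between them, and their proteins were 27.9% identical. Gpc5 (chromosome 14, 115092215 to 116525179) and Gpc6 (chromosome 14, 116925315 to 117976544) are both on the plus strand with 400.135 kb between them, and their proteins were 27.7% identical.

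The other members lie on separate chromosomes. Gpc1 is on chromosome 1 (92831645 to 92860779, plus strand) and Gpc2 on chromosome 5 (138273655 to 138280005, minus strand). Sdc1 is on chromosome 12 (8771323 to 8793715, plus strand), Sdc2 on chromosome 15 (32920723 to 33034935, plus strand), Sdc3 on chromosome 4 (130792537 to 130826319, plus strand) and Sdc4 on chromosome 2 (164424247 to 164443887, minus strand). The annotated exons of the 10 genes add up to between 2547 bases (Sdc4) and 6425 bases (Gpc6). Stretches of 86 nt, the read length, were taken from the transcript with the longest coding sequence of each member. None matched a transcript of another member within 2 mismatches, so that reads of these transcripts can be told from each other. Exons outside these transcripts gave no stretches, and for Gpc6 the transcript holds 2423 of the 6425 bases. Several members overlap other gene models. Of the 86-nt stretches of Gpc2, 88.4% also lie in Gm43720, a gene model on the same strand with no row in the count table, and the count of Gpc2 is uncertain to that extent. In Gpc1, 21.8% of the stretches match Ankmy1 on the opposite strand, which had 1, 1 and 3 counts, and in Sdc3 5.24% match the antisense gene model Gm26716. The share was 2.03% or less in Sdc1, Sdc2 and Gpc5, and Gpc3, Gpc4, Gpc6 and Sdc4 had no such stretch in the transcript searched.

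Promoter sequences from RefSeq (GRCm38.p6) were at hand for 7 of the 10 members, all but Gpc1, Gpc6 and Sdc2. Each window runs from 250 bases before to 50 after a RefSeq start. In Gpc4 and Sdc4 the window lies within the GENCODE bounds given above, downstream of the GENCODE start. The sequences are printed for the glypican and the syndecan with the highest level and for Gpc5, whose RNA was at the limit of detection. They run 5′ to 3′ on the strand of the gene, with each CG pair in capitals.
Gpc4, chrX:52164874-52165173, minus strand: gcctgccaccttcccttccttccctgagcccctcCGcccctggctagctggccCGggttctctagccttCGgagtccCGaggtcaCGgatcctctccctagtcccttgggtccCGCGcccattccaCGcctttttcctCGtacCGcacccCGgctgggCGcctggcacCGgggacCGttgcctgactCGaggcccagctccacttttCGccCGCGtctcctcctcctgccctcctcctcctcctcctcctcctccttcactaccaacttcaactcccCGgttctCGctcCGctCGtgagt
Sdc3, chr4:130792287-130792586, plus strand: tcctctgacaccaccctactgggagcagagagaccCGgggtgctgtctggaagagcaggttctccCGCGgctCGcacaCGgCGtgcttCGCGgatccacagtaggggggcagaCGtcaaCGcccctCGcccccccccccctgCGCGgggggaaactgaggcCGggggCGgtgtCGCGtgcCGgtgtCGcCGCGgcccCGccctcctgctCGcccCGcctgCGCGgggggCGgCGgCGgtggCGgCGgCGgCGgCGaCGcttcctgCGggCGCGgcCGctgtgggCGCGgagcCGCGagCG
Gpc5, chr14:115091965-115092264, plus strand: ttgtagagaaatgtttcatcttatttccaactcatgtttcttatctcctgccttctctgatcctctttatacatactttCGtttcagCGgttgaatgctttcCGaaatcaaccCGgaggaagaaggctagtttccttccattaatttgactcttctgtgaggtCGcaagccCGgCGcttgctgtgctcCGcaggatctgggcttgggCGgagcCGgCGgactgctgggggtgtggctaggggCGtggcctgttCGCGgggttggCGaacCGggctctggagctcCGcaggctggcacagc
The Gpc4 window holds 22 CG pairs, the Sdc3 window 44 and the Gpc5 window 17, and the other 4 windows hold 26 (Gpc2), 30 (Gpc3), 14 (Sdc1) and 22 (Sdc4). The median of all 32851 promoters in the table is 7 pairs, and 97.8% of them have fewer than Sdc3, 76.9% fewer than Gpc4 and 68.6% fewer than Gpc5. All 7 windows held more pairs than this median. The lowest was that of Sdc1, and 63.7% of all promoters have fewer pairs than it. The number of CG pairs thus does not set Sdc1 or Gpc5 apart from promoters in general. The letters TATAAA, or TTTATA for the other strand, occur in the window of Gpc5 and in that of no other member at hand, and they occur in 13.6% of all promoters. These matches describe the letters only.

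Counts are given next for every clone, followed by levels in CPM (library sizes scaled by TMM) and, wherever genes are compared with each other, in CPM per kb of annotated exon. Gpc4, a glypican that modulates Wnt and FGF signalling, had 24490, 11999 and 16460 counts in clones 1, 2 and 3, or 723 ± 235 CPM (SD, n = 3). Clone 1 was far above the other clones. Per kb, its level was 372, 201 and 246 in the 3 clones, with a mean of 273 ± 88.7 (SD, n = 3), and 122 of the 11342 expressed genes with a known exon length had a higher mean.

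Gpc1, the glypican with the broadest known expression, had 4976, 4965 and 5543 counts, or 213 ± 11.3 CPM (SD, n = 3). Its level per kb was 38.8, 42.7 and 42.5, and clone 1 was lowest. Gpc3, an inhibitor of Hedgehog signalling whose loss causes an overgrowth syndrome, had 1200, 1445 and 1597 counts, or 58.5 ± 8.88 CPM. Here too clone 1 was lowest, with 18.0 CPM per kb against 23.8 and 23.5 in clones 2 and 3, so that the neighbours Gpc3 and Gpc4 differed in opposite directions in that clone. Of the counts of Gpc3 and Gpc4 together, Gpc4 took 95.3% in clone 1 (95% Wilson interval 95.1 to 95.6), 89.3% in clone 2 (88.7 to 89.8) and 91.2% in clone 3 (90.7 to 91.6). These intervals do not overlap, and they cover counting error only.

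Gpc6, the closest relative of Gpc4 and a gene needed for long bone growth, had 1888, 1671 and 1916 counts, or 75.3 ± 1.05 CPM (SD, n = 3). Its levels per kb were 11.8, 11.5 and 11.8, which is the closest agreement of clones among the members. Gpc2, known from the developing nervous system, had 972, 588 and 845 counts, or 32.9 ± 6.54 CPM. It had the order of clones that Gpc4 had, with 9.15 CPM per kb in clone 1, 6.10 in clone 2 and 7.83 in clone 3. Gpc5, known mainly from brain and kidney, had 0, 3 and 1 counts. A count of 0 allows up to 3 counts, or 0.121 CPM in clone 1. Clones 2 and 3 held 3 and 1 counts, so that Gpc5 was at the limit of detection at this depth.

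Sdc3, best known from neural tissue and muscle, was the highest syndecan, with 15046, 15609 and 14897 counts, or 629 ± 55.1 CPM (SD, n = 3). Per kb its level was 101, 116 and 98.5, highest in clone 2. Sdc1, the syndecan of epithelia and plasma cells, had 7676, 7713 and 8028 counts, or 323 ± 17.1 CPM, and 81.1, 89.8 and 83.4 CPM per kb. It was highest in clone 2, as was the epithelial keratin gene Krt19 (2.14-fold between clones 2 and 1). Other genes of the epithelial list were highest in clone 3, namely Krt18 (69, 67 and 134 counts), Cldn4 (65, 14 and 82) and Krt8 (6, 9 and 28). Epcam, Cdh1 and the B cell and plasma cell genes were at 5 counts or fewer. The part of other cell types in the level of Sdc1 was not tested.

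Sdc4, a component of focal adhesions in fibroblasts, had 4504, 4941 and 4458 counts, or 192 ± 23.4 CPM (SD, n = 3). Its level per kb was 71.2, 86.03 and 69.3, again highest in clone 2. Sdc2, the syndecan first known from fibroblasts and other mesenchymal cells, had 6467, 5443 and 5940 counts, or 246 ± 13.1 CPM, and 73.8, 68.4 and 66.7 CPM per kb. It was the only syndecan not highest in clone 2.

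**Figure D1:**
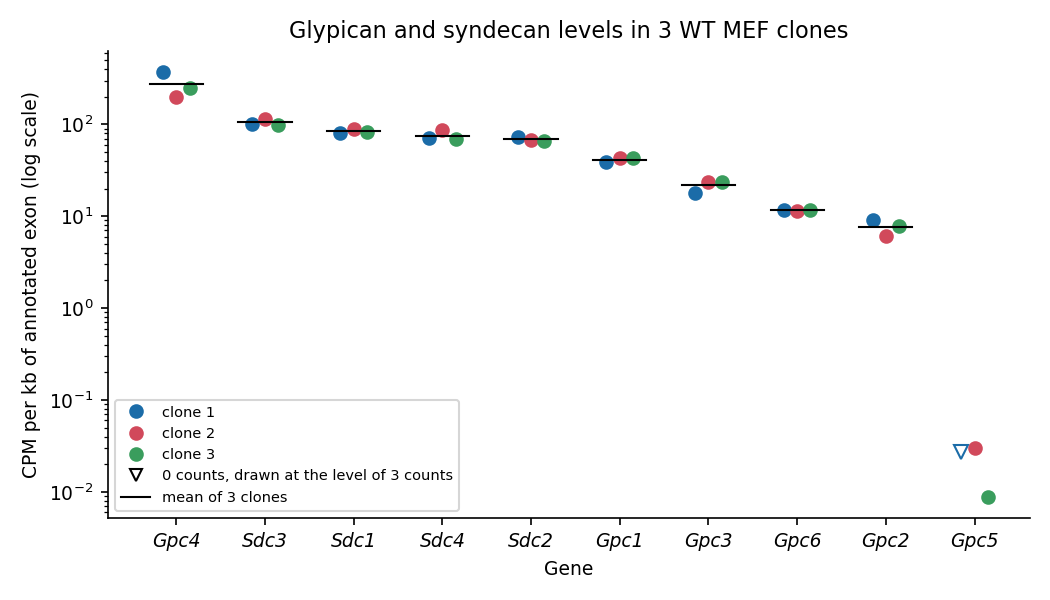
Level of each glypican and syndecan in CPM per kb of annotated exon (log axis) in the 3 WT MEF clones, with points for clones and a bar for their mean, in order of the mean. Gpc4 lies between 201 and 372, the 4 syndecans lie between 66.7 and 116, and Gpc5 lies at the level of 3 counts or below.

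In the order of mean levels per kb, Gpc4 (273) was followed by Sdc3 (105), Sdc1 (84.8), Sdc4 (75.5), Sdc2 (69.6), Gpc1 (41.3), Gpc3 (21.8), Gpc6 (11.7), Gpc2 (7.69) and Gpc5. Neighbours in this order were taken as separated where their ranges over the 3 clones did not overlap, which was the case for 7 of 9 pairs. Sdc1 and Sdc4 overlapped, although Sdc1 was higher in each of the 3 clones. Sdc4 and Sdc2 overlapped, and Sdc4 was higher in 2 clones. Gpc4 was above Sdc3 by 1.33 ± 0.54 on the log2 scale per kb (SD, n = 3), with Gpc4 higher in 3 of 3 clones. A two-sided exact sign-flip test over 3 clones cannot give a p below 0.25, so no p is given for these orders.

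The place of Gpc6 depended on the length used. Per kb of all annotated exons, Gpc3 was above Gpc6 by 0.88 ± 0.24 on the log2 scale (SD, n = 3). Per kb of the transcript that has the longest coding sequence, which is much shorter than all exons of Gpc6, Gpc6 had 31.1 ± 0.434 and Gpc3 had 26.4 ± 4.01 CPM per kb, and the log2 ratio of Gpc3 to Gpc6 was -0.25. The first 6 places and the last 2 were held by the same genes under both lengths.

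Within the glypicans, Gpc4 accounted for 82.7%, 70.5% and 74.2% of the summed level per kb in clones 1, 2 and 3, a mean of 75.8% ± 6.28 (SD, n = 3). Gpc1 followed with 12.1% ± 3.23, Gpc3 with 6.48% ± 2.25, Gpc6 with 3.41% ± 0.720 and Gpc2 with 2.18% ± 0.166. As a share of counts, with no correction for length, Gpc4 took 73.0% in clone 1 (95% Wilson interval 72.6 to 73.5), 58.0% in clone 2 (57.4 to 58.7) and 62.4% in clone 3 (61.9 to 63.0). The syndecans were more evenly spread. Sdc3 accounted for 31.3% ± 0.681 of their summed level per kb, Sdc1 for 25.33% ± 0.799, Sdc4 for 22.5% ± 1.23 and Sdc2 for 20.8% ± 1.77. Glypicans made up 57.9%, 44.2% and 51.0% of both families per kb in clones 1, 2 and 3. Per kb, the larger family was thus the glypicans in clones 1 and 3, narrowly in clone 3, and the syndecans in clone 2. By counts, glypicans made up 49.9% (95% Wilson interval 49.5 to 50.3), 38.0% and 44.2%, and were not the larger family in any clone.

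**Figure D2:**
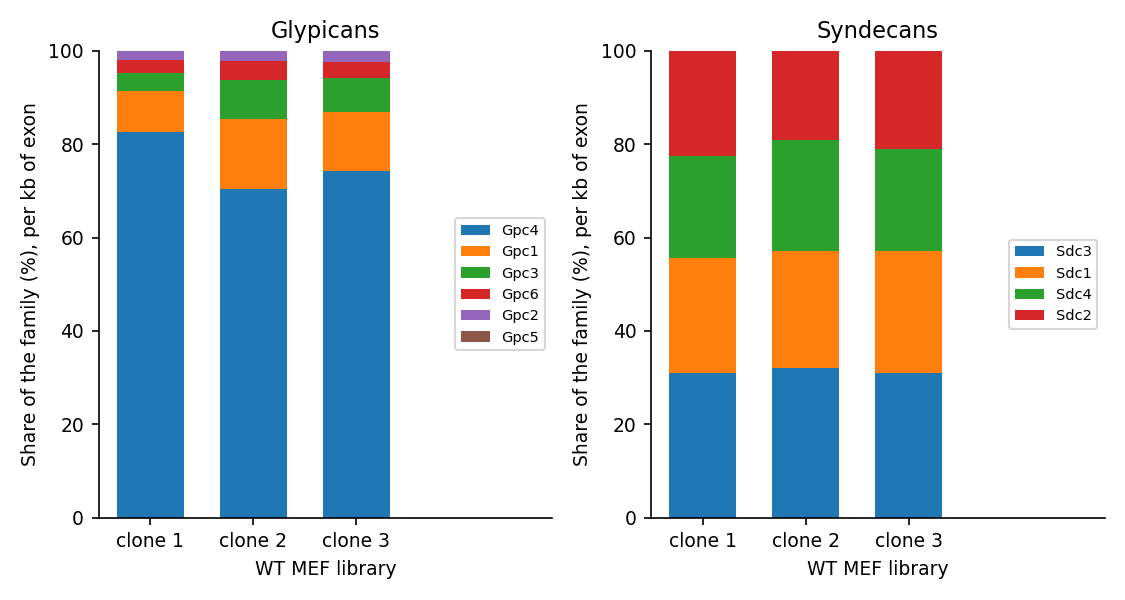
Share of each gene in the summed level of its family (%, CPM per kb of exon), with 1 stacked bar for each WT MEF clone, glypicans on the left and syndecans on the right. Gpc4 fills 70.5% to 82.7% of the glypican bars, while the 4 syndecans hold similar shares in every clone.

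The next question was which members differed between the clones by more than counting error. A Pearson chi-square test of the 3 counts against TMM-scaled library sizes, with Benjamini-Hochberg adjustment over the 12218 genes that reached 10 counts in each clone, called 8 of the 9 members tested at an adjusted p under 0.05. The background was high, with 62.5% of all genes tested called (71.8% of the 8390 genes whose mean reached 10 CPM), so that the number of members called is no result about them. None of the 9 members differed by 2-fold or more between the highest and the lowest clone, against 7.93% of all genes tested and 3.37% of those whose mean reached 10 CPM that were called with such a difference. The median range of log2(CPM + 1) was 0.23 over the 9 members, 0.28 over all genes tested and 0.25 over genes whose mean reached 10 CPM.

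Gpc4 had a range of 0.89 on the log2(CPM + 1) scale, which is larger than that of 95.9% of the genes whose mean reached 10 CPM. Gpc2 came next with a range of 0.57 (1.5-fold, adjusted p = 3.48e-13 by chi-square). Both were highest in clone 1 and lowest in clone 2, the order that the arrest genes had as well and the reverse of that of the cell cycle genes. The summed cartilage genes were also highest in clone 1 and lowest in clone 2, with Col2a1 as the main part of the sum. The list itself was split. Of its 4 called genes, 2 were highest in clone 1 (Col2a1 and Comp) and 2 in clone 2 (Acan and Sox9). The part of proliferation or of other cell types in the ranges of Gpc4 and Gpc2 was not tested. Gpc4 and Gpc2 were called in each pair of clones, too. The range of Gpc4 was 0.29 without clone 1, 0.59 without clone 2 and 0.89 without clone 3, and that of Gpc2 was 0.35, 0.22 and 0.57.

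Gpc3 (range 0.40, adjusted p = 2.96e-14) and Gpc1 (0.14, adjusted p = 1.5e-06) were lowest in clone 1. Both calls rested on that clone, since without it the adjusted p was 0.827 for Gpc3 and 0.927 for Gpc1. The call of Sdc2, highest in clone 1 with a range of 0.15 (adjusted p = 1.15e-07), was also lost without clone 1 (adjusted p = 0.31). Without this clone 5 of the 9 members were called, against 31.7% of all genes tested.

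Sdc4 (range 0.31, adjusted p = 1.41e-28 by chi-square), Sdc3 (0.23, adjusted p = 1.04e-48) and Sdc1 (0.15, adjusted p = 2.5e-09) were highest in clone 2, the clone with the highest macrophage markers. All 7 cell cycle genes were highest in clone 2 as well. Without clone 2 the adjusted p was 0.347 for Sdc4, 0.0666 for Sdc3 and 0.116 for Sdc1. Without this clone, too, 5 of the 9 members were called, against 45.3% of all genes tested, and without clone 3 the number was 8, against 53%. The part of macrophages or of proliferation in the syndecan levels of clone 2 was not tested. Gpc6 was not called in any of these fits (adjusted p = 0.752 with all 3 clones), and its CPM had a coefficient of variation of 1.40%, against a median of 9.16% over genes whose mean reached 10 CPM.

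**Figure D3:**
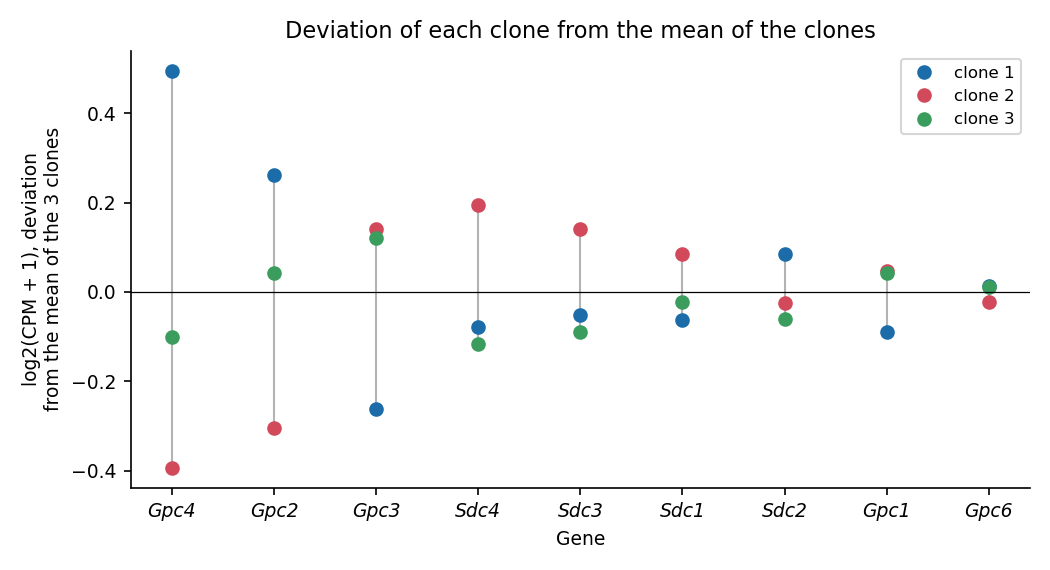
Deviation of each clone from the mean of the 3 clones on the log2(CPM + 1) scale for the 9 members expressed, ordered by their range, with a line from the lowest to the highest clone. Clone 1 is highest and clone 2 lowest in Gpc4 and Gpc2, while clone 2 is highest in Sdc1, Sdc3 and Sdc4.

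**Figure D4:**
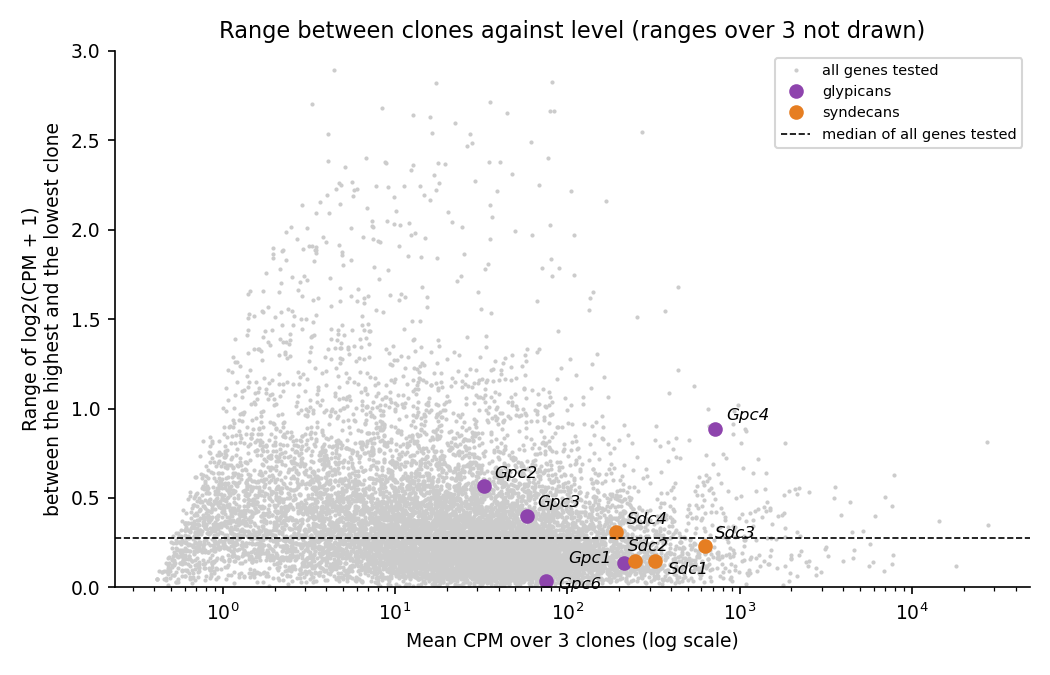
Range of log2(CPM + 1) between the highest and the lowest clone against mean CPM (log axis) for the 12218 genes tested (grey, ranges over 3 not drawn), with glypicans and syndecans in colour and the median range of all genes as a dashed line. Gpc4 has a range of 0.89 at 723 CPM, and the other 8 members lie at 0.57 or below.

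Genes whose deviations over the 3 clones were nearest to those of the most variable members were sought among 8389 genes whose mean reached 10 CPM, by the root mean square difference on the log2(CPM + 1) scale. For Gpc4 they were Gas6 (difference of 0.0128), Cbr2 (0.0140) and Tet2 (0.0142). Gas6 had 5440, 2637 and 3701 counts. For Gpc2 they were Ass1 (0.00353), Tanc1 (0.00354) and Kif26b (0.00703), of which Ass1 had 3074, 1874 and 2693 counts. With 3 clones such likeness rests on few values, and it is given as a description. The neighbours of Gpc2 were looked up because of their position. Stag3, a germline cohesin subunit whose annotated start lies 234 bases from that of Gpc2 on the opposite strand, had 83, 40 and 53 counts, which like those of Gpc2 are highest in clone 1 and lowest in clone 2, with 1.88-fold between them. Gal3st4, downstream of Gpc2 on the same strand, had 148, 81 and 81 counts, and was highest in clone 1 and lowest in clone 3 (5.96, 3.59 and 3.21 CPM).

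Both families bind growth factors and matrix proteins through their chains, so the genes that build, trim and anchor these proteoglycans were described in the same way. In 12 lists of 100 genes, 99 were in the table, 83 were expressed and 86 had enough counts to be tested, of which 71 were called as differing between clones and 4 of these by at least 2-fold. Of all genes tested, 62.5% were called and 7.93% were called with at least 2-fold (71.8% and 3.37% of those whose mean reached 10 CPM), and the number called in each list is to be read against these shares. Their median range of log2(CPM + 1) was 0.31, against 0.28 over all genes tested.

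Synthesis of both heparan and chondroitin sulfate starts with a linkage tetrasaccharide. All 6 of the linkage genes in the table were expressed and 5 were called, with B3gat3 (glucuronosyltransferase, 1147, 915 and 1107 counts) and the xylosyltransferase Xylt2 (1445, 1245 and 1257 counts) highest per kb, at 16.8 ± 1.08 and 13.7 ± 1.07 CPM per kb (SD, n = 3). The largest ranges among those called belonged to the galactosyltransferases B3galt6 (1.23-fold) and B4galt7 (1.22-fold). Of the 5 genes of chain polymerization, 4 were expressed and 3 were called. Ext1 and Ext2, which form the heparan sulfate polymerase, had 31.3 ± 2.79 and 27.7 ± 4.45 CPM per kb. Ext1 had 6887, 5591 and 5880 counts and Ext2 had 4689, 5426 and 4557, so that Ext1 was highest in clone 1 and Ext2 in clone 2.

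Of 16 genes of chain modification, 9 were expressed, 10 tested and 6 called. Hs6st2, a 6-O-sulfotransferase, was highest per kb with 26.9 ± 3.15 CPM per kb (4522, 4972 and 5753 counts), followed by the 2-O-sulfotransferase Hs2st1 with 18.0 ± 2.78 (3142, 3875 and 3659 counts). Both were lowest in clone 1. The 3-O-sulfotransferase genes lay at 1.62 CPM per kb (Hs3st3b1) or below, and Hs3st2 was at 0 in all clones. Outside cells, chains are trimmed by sulfatases and heparanase. Sulf2 had 38.9 ± 5.38 CPM per kb and Sulf1 had 32.6 ± 2.14, both called, with 6487, 4464 and 5732 counts for Sulf2 and 9603, 7683 and 9517 for Sulf1. Both were highest in clone 1 and lowest in clone 2, as Gpc4 was. Hpse had 20, 25 and 29 counts, and Hpse2 was at 0 in all clones.

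**Figure D5:**
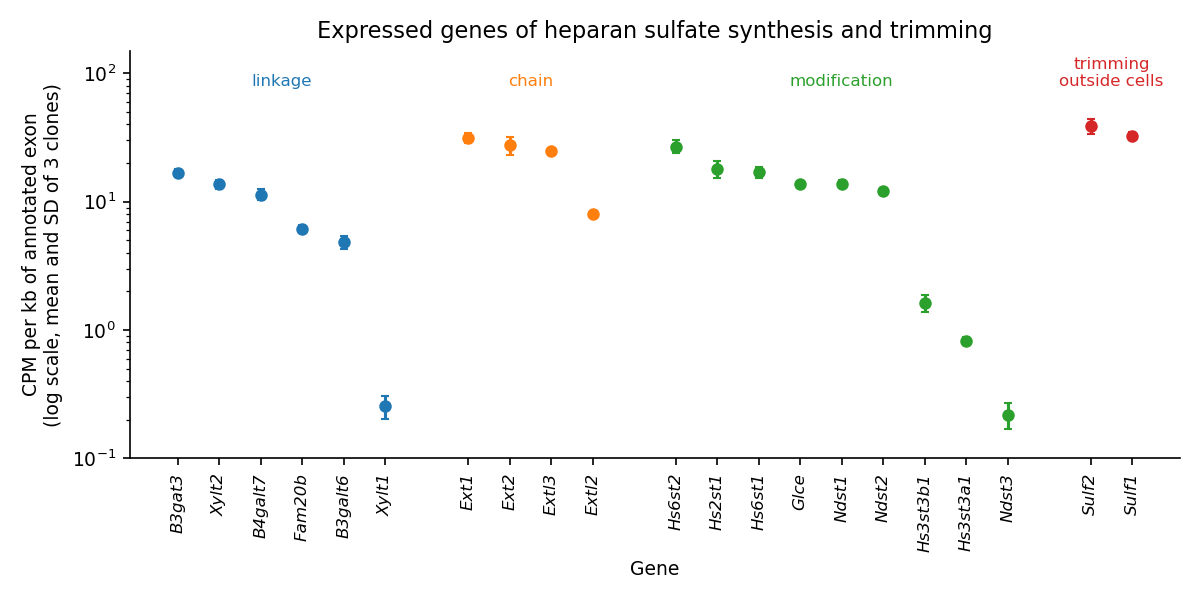
Mean level and SD over 3 WT MEF clones, in CPM per kb of annotated exon (log axis), of the expressed genes for the linkage region, chain polymerization and chain modification of heparan sulfate and for its trimming outside cells. Sulf2 is highest at 38.9, followed by Sulf1 at 32.6 and Ext1 at 31.3.

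All 8 genes of lysosomal heparan sulfate degradation were expressed and called, where 62.5% of all genes tested were called, and their median range was 0.51, against 0.28 over all genes tested. Gusb, a lysosomal glucuronidase, had 32.8 ± 6.70 CPM per kb, and the largest ranges among those called with a mean of at least 10 CPM were those of Hgsnat (1.71-fold, highest in clone 2) and Naglu (1.53-fold, highest in clone 1). All 6 precursor genes were expressed and 5 were called. Slc35b2, which carries the sulfate donor into the Golgi, had 22.4 ± 1.80 CPM per kb and Papss1, which makes that donor, had 14.4 ± 1.04. Ugdh (1.46-fold) and Uxs1 (1.32-fold), which make the sugar donors for the chains and the linkage, were both lowest in clone 1. Of 15 chondroitin sulfate genes, 13 were expressed, 14 tested and 10 called, with Chst12 (93.0 ± 1.5 CPM per kb, adjusted p = 0.307) and Chpf (78.7 ± 11.8) highest. Chst11 (1.46-fold) and Chpf2 (1.42-fold) had the largest ranges with a mean of at least 10 CPM.

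All 7 genes of GPI attachment, the step that anchors the glypicans, were expressed and called, again against 62.5% of all genes tested, with Pigs at 66.0 ± 3.71 and Pigt at 31.4 ± 1.99 CPM per kb and the largest ranges in Pigu (1.24-fold) and Gpaa1 (1.21-fold). Of 8 genes of proteins that cut glypicans, 5 were expressed and 4 of the 5 tested were called. Furin, a convertase that processes glypican core proteins, had 32.3 ± 0.643 CPM per kb (7207, 6719 and 7618 counts, adjusted p = 0.081), and Pcsk7 had 7.93 ± 0.819. Pcsk6 (1.63-fold) and Gdpd5 (1.28-fold, a GPI-cleaving phosphodiesterase) had the largest ranges with a mean of at least 10 CPM. Notum, the secreted hydrolase first described as a glypican-releasing enzyme, had 7, 12 and 8 counts.

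Of 7 genes of proteases that shed syndecan ectodomains, 6 were expressed and 5 were called, and Mmp7 was at 0 in all clones. Mmp2 was the highest at 292 ± 106 CPM per kb and differed 2.03-fold, with 34274, 15324 and 22535 counts. Its order of clones was that of Gpc4. Mmp14, which activates Mmp2, followed with 242 ± 22.9 CPM per kb (38954, 29230 and 36821 counts), and Mmp9 had a 1.52-fold range with the highest level in clone 2. All 10 genes of proteins that bind syndecan tails were expressed and 9 were called. The actin crosslinker Actn1 had 438 ± 22.2 and the PDZ protein Gipc1 46.6 ± 3.48 CPM per kb, and Cask (1.48-fold) and Ezr (1.45-fold) had the largest ranges with a mean of at least 10 CPM, both highest in clone 2.

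Among 7 other proteoglycans that carry heparan sulfate or can do so, all were expressed and called, where 62.5% of all genes tested were called, and their median range was 0.56, against 0.28 over all genes tested. Hspg2, which encodes perlecan of basement membranes, had 249 ± 56.0 CPM per kb (111271, 68301 and 79919 counts), close to the mean of Gpc4 (273 ± 88.7) relative to the spread of both. Cd44, the hyaluronan receptor, had 177 ± 38.3 CPM per kb (23068, 32594 and 30901 counts). Tgfbr3 (139, 289 and 201 counts) and Srgn (38, 151 and 46 counts), a proteoglycan of blood cell granules, differed by 2.29-fold and 4.38-fold, and both were highest in clone 2.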

How the data were processed

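RNA-seq was analysed in 3 libraries of WT MEFs. Reads were 86 nt, single-end. Per the submitters' processing notes, alignment was with TopHat2 2.0.0 on Bowtie 0.12.7 (SAMtools version 0.1.16), and genes were counted with HTSeq; the methods of the study give 2 mismatches and 5 multi-hits per read as limits. The build is named as mm10 in the methods and as mm9 in the notes, and the annotation and the strand setting of HTSeq are not given in the sources used here, so that counts of overlapping or antisense genes are uncertain. The table that the authors deposited holds raw counts for each gene symbol, without coordinates or normalization.

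CPM were computed from these counts with TMM-scaled library sizes (edgeR 4.0.16, R 4.3.3; factors 0.984, 0.998 and 1.02). Gene positions, exon lengths and translated transcripts came from GENCODE M21 on GRCm38. Symbols were matched to it directly for 21117 genes and through synonyms for 596, and 69 had no match. Levels per kb used the union of exons. The test between clones was Pearson's chi-square (2 degrees of freedom) over genes that reached 10 counts in each clone, with Benjamini-Hochberg adjustment and a threshold of 0.05. With 1 library for each clone, it compares libraries and cannot tell a clone from its culture. The biological coefficient of variation over all genes tested was 0.187 (0.172 without clone 1, 0.142 without clone 2 and 0.228 without clone 3). Shares of counts have 95% Wilson intervals, and log2 values a pseudocount of 1 CPM. Proteins were aligned globally (Biopython 1.88, BLOSUM62). Scripts used Python 3.11.15 and were tested on simulated data.

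The members, the lists and the tests were chosen with earlier results of these data known. Named besides the 10 members were, from each list, the 2 genes with the highest mean per kb and the 2 with the largest range among those called with a mean of at least 10 CPM, genes at 0 in all clones, and the 3 genes nearest in pattern to the 2 most variable members. Some of the genes under this rule are not reported here. The plot of heparan sulfate genes shows every expressed gene of its lists. Stag3, Gal3st4, Notum, Hpse, Hs3st3b1, Tgfbr3 and Srgn were named after their values had been seen. Pxylp1 and Adgre1 were not analysed here. Alternatives were DESeq2 1.42.0 size factors, total counts, other count limits, thinned counts, the length of the transcript that has the longest coding sequence, no length, and leaving out each clone.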

Additional observations from a re-analysis of the deposited data

How the results depend on the processing

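Of the values recomputed, those for the members kept their side of the threshold under DESeq2 size factors, total counts, other count limits and thinning to the smallest library, with 8 of 9 members called in each. Leaving out a clone gave between 5 and 8 members called, between 3893 and 6531 of all genes (7642 with 3 clones) and between 46 and 57 genes of the pathway lists (71 with 3 clones). These fits hold 1 library fewer. Without clone 1 the calls of Gpc1, Gpc3 and Sdc2 were lost, and without clone 2 those of Sdc1, Sdc3 and Sdc4. Length mattered for shares and order. With no length, glypicans were 44.0% of both families (51.0% per kb of exon), Gpc4 was 64.5% of the glypicans and Sdc3 was 45.2% of the syndecans, and with the length of the transcript that has the longest coding sequence these were 68.2% for Gpc4 and 33.6% for Sdc3. That length also turned the log2 ratio of Gpc3 to Gpc6 from 0.88 to -0.25 and moved that of Sdc1 to Sdc4 from 0.17 to 0.39. Exons outside that transcript make the difference, by construction. No paired analysis was possible because all samples belong to a single group. At these depths 3 counts are 0.119 to 0.133 CPM, which limits what can be said of Gpc5.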
